A study of Mus musculus with 111 samples.

Results

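The ZT8 and ZT20 libraries of the control viruses were compared, mid-light against late-dark, across all gene rows of the count tables. They were chosen by virus and hour alone and made 24 of the 111 libraries of the series: 13 at ZT8 (6 GFP and 7 H3.3) and 11 at ZT20 (5 GFP and 6 H3.3). All were made from tuberomammillary nucleus (TMN) tissue, the posterior hypothalamic region that holds the histamine neurons of the brain, of male and female C57BL/6J mice, 8 to 10 weeks old when bought, kept in a light-dark cycle in which ZT0 is lights on. Each mouse had received an adeno-associated virus into the TMN on both sides. GFP libraries came from mice given a vector for GFP alone, and H3.3 libraries from mice given wild-type histone H3.3 with GFP from the same transcript. The tissue was cut out by its GFP light and each library came from 1 animal, so a library holds every cell of the cut piece, infected or not. In the third arm of the series the vector carried H3.3 with glutamine 5 changed to alanine (Q5A), which takes no monoamine there, and its 12 libraries at these hours are used below for comparison only.

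In mouse tissues the daily clock is a loop of transcription factors. CLOCK and its partner BMAL1 bind E-boxes (CACGTG) and switch on the Period and Cryptochrome genes, Nr1d1, which encodes the repressor REV-ERBα, and Dbp, a transcription factor that passes the rhythm on to other genes. The Period and Cryptochrome proteins and REV-ERBα then shut the loop down again. Transcripts of Dbp and Nr1d1 are known to be plentiful in the light phase and scarce late in the dark in many mouse tissues. Mice are active in the dark, when the histamine neurons fire.

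The counts have to be read with their strand in mind. The library kit gives a first read that runs against the transcript, and the authors counted reads with htseq-count told to expect the opposite. With these settings a row is expected to take reads from whatever is transcribed across its exons on the other strand, and from its own gene only the few reads of the unusual direction. The 54087 rows together took up 979664 to 1902572 reads per library, which was 3.59% to 4.82% of those placed at 1 position. Mean totals were 1455197 ± 207170 reads at ZT8 (SD, n = 13) and 1319827 ± 261219 at ZT20 (SD, n = 11; 2-sided permutation test, p = 0.169, adjusted over 3 library measures 0.212). The share was 3.94% ± 0.128 at ZT8 and 4.09% ± 0.377 at ZT20 (permutation test, p = 0.212, adjusted 0.212), and it was over 4.5% in H3.3 ZT20 cohort 1 replicates 2 and 3 only. The largest named example is Parpbp, which lies opposite Pmch, the gene of the hypothalamic peptide melanin-concentrating hormone: its row reached 46492 CPM, counts scaled to the TMM-adjusted total of all gene rows, while the Pmch row stayed at or under 306 CPM. For this reason annotated genes whose exons overlap those of a named row on the other strand (GRCm38) are given, where there are any, for the tested rows named.

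For 3 clock genes the 250 bases before the RefSeq start are shown, since the rows that carry the clock result lie across Dbp and Nr1d1, and Ciart, whose product represses CLOCK and BMAL1, has the E-box letters next to its start. They read 5′ to 3′ on the strand of the gene in GRCm38.p6, with CACGTG, and the related CACGTT or AACGTG, in capitals. The Dbp bases are chr7:45704997-45705246 (+), those of Nr1d1 chr11:98775378-98775627 (-) and those of Ciart chr3:95882229-95882478 (-).
Dbp: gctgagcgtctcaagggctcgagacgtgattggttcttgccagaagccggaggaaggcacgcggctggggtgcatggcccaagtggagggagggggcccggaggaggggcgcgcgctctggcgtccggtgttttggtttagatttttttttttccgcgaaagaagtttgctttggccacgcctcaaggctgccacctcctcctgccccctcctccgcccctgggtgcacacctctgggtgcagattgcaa
Nr1d1: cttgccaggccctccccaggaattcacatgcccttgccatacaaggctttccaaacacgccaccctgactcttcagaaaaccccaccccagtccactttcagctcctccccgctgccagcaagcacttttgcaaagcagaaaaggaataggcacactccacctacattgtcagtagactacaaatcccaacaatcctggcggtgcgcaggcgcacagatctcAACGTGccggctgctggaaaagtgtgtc
Ciart: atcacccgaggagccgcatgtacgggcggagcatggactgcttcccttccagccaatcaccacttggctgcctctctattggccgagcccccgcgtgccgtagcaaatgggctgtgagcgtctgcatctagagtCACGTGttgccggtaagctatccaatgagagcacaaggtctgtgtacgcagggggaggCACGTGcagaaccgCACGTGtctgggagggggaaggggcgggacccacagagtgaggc
Searched on both strands, CACGTG was found 3 times before Ciart and AACGTG 1 time before Nr1d1, and neither motif was found in this window of Dbp. Of 32851 promoters of the RefSeq table, searched in the same window, 6.02% held CACGTG and 3.85% held CACGTT or AACGTG. A match of letters is a description and not a binding site.

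The clock difference between the hours was found in the rows that lie opposite Dbp and Nr1d1. The Sphk2 row (chr7:45709467-45718002, -; Sphk2 encodes a sphingosine kinase) overlaps exons of Dbp and of Rpl18, a ribosomal protein gene. At ZT8 it lay between 489 and 1113 CPM, with a median of 795. At ZT20 it lay between 295 and 1165, with a median of 428. The hours overlapped. GFP ZT20 cohort 1 replicate 1, at 1165, stood above every ZT8 library. Its label was kept. The other 10 ZT20 libraries lay between 295 and 561. Of 13 ZT8 libraries 12 lay above all of these, and H3.3 ZT8 cohort 1 replicate 3, at 489, lay among them. The row was 1.71-fold higher at ZT8, a log2 difference of 0.77 ± 0.16 (SE; edgeR quasi-likelihood test with virus as covariate, adjusted p = 0.00416). Without GFP ZT20 cohort 1 replicate 1 the difference was 0.97. The smallest p of the 20-library and of the 19-library fits described below was that of the Sphk2 row in each case, with log2 differences of 0.89 (edgeR, adjusted p = 0.00412) and 0.85 ± 0.12 (SE; edgeR, adjusted p = 0.000471). Both of these fits leave out GFP ZT20 cohort 1 replicate 1, the ZT20 library that went most against the difference. Reads from Dbp and reads from Rpl18 in the Sphk2 row cannot be told apart in these tables.

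Thra (chr11:98740638-98769006, +), the gene of thyroid hormone receptor alpha, and Nr1d1 (chr11:98767932-98775333, -) overlap each other tail to tail by 263 exonic bases, so reads of Nr1d1 in the shared stretch fall in the Thra row and reads of Thra in the Nr1d1 row. The Thra row lay between 374 and 641 CPM at ZT8, with a median of 457, and between 256 and 544 at ZT20, with a median of 312. Again GFP ZT20 cohort 1 replicate 1 was the highest ZT20 library, at 544. The other 10 ZT20 libraries lay between 256 and 368, below all 13 ZT8 libraries. The Thra row was 1.43-fold higher at ZT8, a log2 difference of 0.52 ± 0.12 (SE; edgeR, adjusted p = 0.00536). It rose to 0.63 without that library. Over 20 and over 19 libraries, which also leave that library out, the difference was 0.60 (edgeR, adjusted p = 0.0214) and 0.57 (edgeR, adjusted p = 0.00239).

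The Nr1d1 row itself lay between 1787 and 2693 CPM at ZT8, with a median of 2208, and between 841 and 2152 at ZT20, with a median of 1597. It was higher at ZT8 by 0.59 ± 0.13 (log2, SE; edgeR, adjusted p = 0.00448), and in 9 of 13 ZT8 libraries it exceeded every ZT20 library. The lowest ZT20 values, 841, 993, 1051 and 1223 CPM, were those of the 4 libraries with high thalamic markers described below. Without them its difference was 0.36 (edgeR, adjusted p = 0.122), and without these and 1 further library 0.38 (edgeR, adjusted p = 0.0166). The Dbp row, which takes reads of the opposite direction from Sphk2, held 10.03 to 42.4 CPM at ZT8 (median 20.7) and 13.2 to 28.0 at ZT20 (median 17.5), a log2 difference of 0.30 that did not pass (edgeR, adjusted p = 0.241). The Rpl18 row, also opposite Sphk2, differed by -0.13 (edgeR, adjusted p = 0.477). With the summed thalamic markers described below as a covariate no row passed (edgeR, 1303 at an unadjusted p under 0.05), and the Sphk2, Thra and Nr1d1 rows were then higher at ZT8 by 0.83, 0.63 and 0.40 (edgeR, adjusted p = 0.126, 0.0975 and 0.199).

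**Figure D1:**
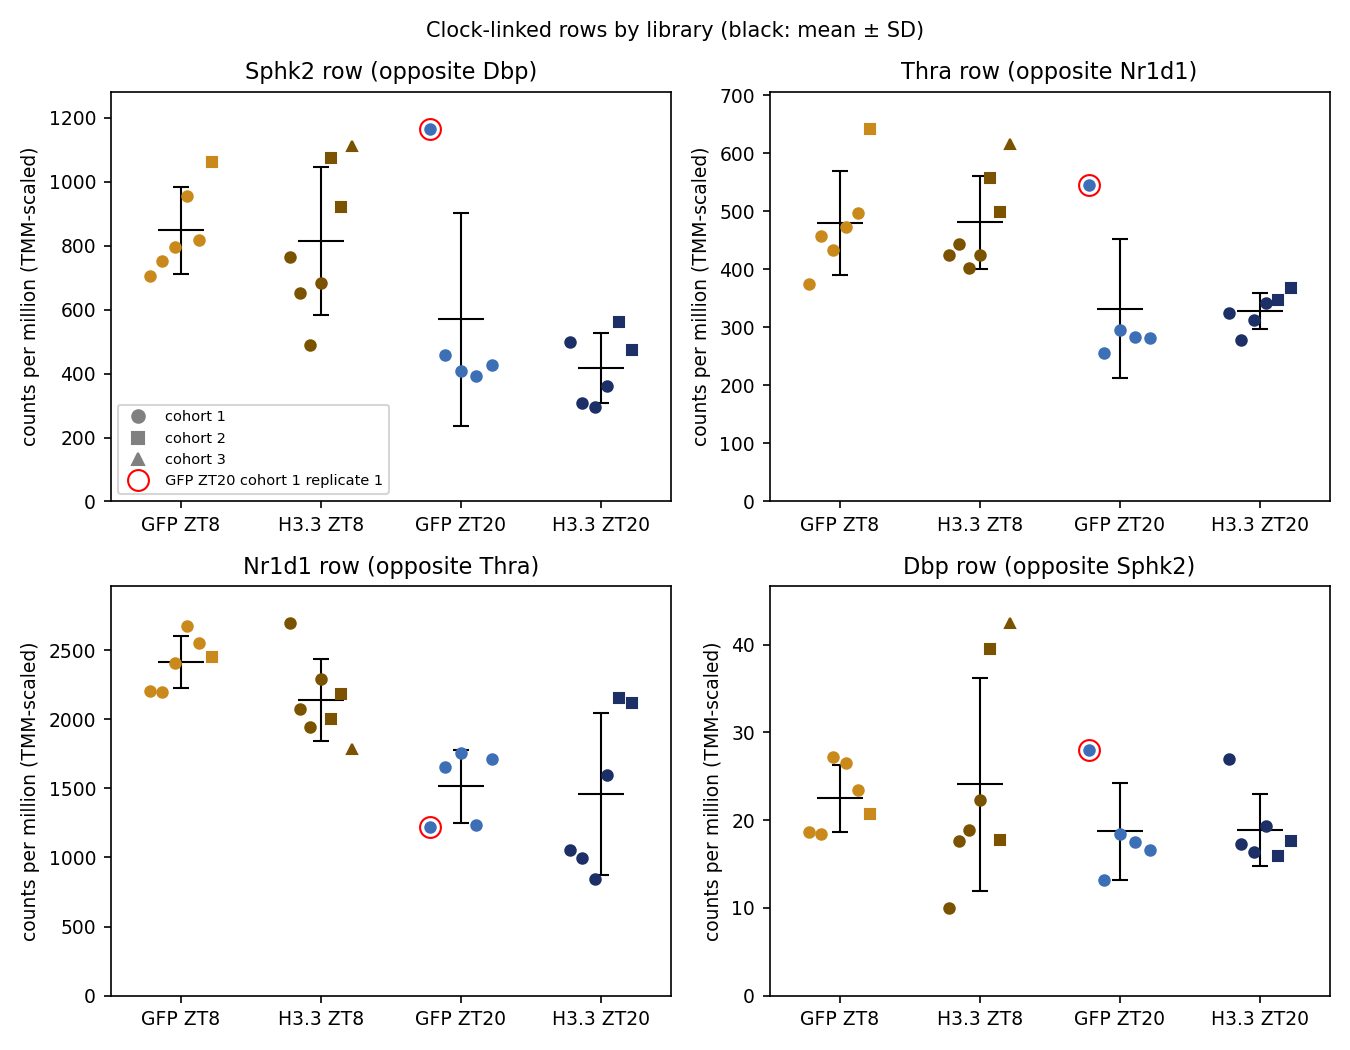
CPM of the rows that lie across clock genes in each of the 24 libraries, by virus and hour, with cohorts as symbols and mean ± SD in black. The Sphk2 and Thra rows have higher means at ZT8, and 1 GFP ZT20 library, at 1165 and 544 CPM, stands with the ZT8 libraries. In the Sphk2 row H3.3 ZT8 cohort 1 replicate 3, at 489 CPM, lies among the ZT20 libraries.

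Of 16 core clock rows 9 passed the filter on low counts, and of 9 clock output rows 8 passed. Among those below it were Arntl, which encodes BMAL1, and Per2, Per3, Cry1, Npas2, Rorb and Nfil3. Of these rows Nr1d1, which lies opposite Thra, was called higher at ZT8, where 7.77% of all rows tested were. Higher at ZT20 were 2, where 9.51% of all rows tested were. With so few clock rows, these counts lie near the shares over all rows. Rora, opposite Gm15511, which encodes an activator that competes with REV-ERBα and is one of the thalamic marker rows below, held 0.699 to 7.59 CPM at ZT8 and 0.880 to 42.4 at ZT20 (log2 -2.07, edgeR, adjusted p = 0.00479), and fell below the filter in the 19 libraries. Hlf, a relative of Dbp, held 2.58 to 13.4 CPM at ZT8 and 4.36 to 41.2 at ZT20 (log2 -1.53, edgeR, adjusted p = 0.00399), and -0.71 over 19 libraries (edgeR, adjusted p = 0.128). Per1, the light-responsive Period gene, had medians of 6.09 CPM at ZT8 and 10.8 at ZT20 (log2 -0.41, edgeR, adjusted p = 0.286). Nr1d2, the second REV-ERB, had medians of 7.19 and 10.01 (log2 -0.64, edgeR, adjusted p = 0.0796). Clock, Cry2, Csnk1d, Csnk1e, Tef, Bhlhe40, Bhlhe41, Ciart, Usp2 and Wee1 lay between -0.24 and 0.21 on the log2 scale and did not pass. Of these Cry2 lies opposite D930015M05Rik, Csnk1d opposite Gm28192, Csnk1e opposite Gm16059, Tef opposite Gm17597, Bhlhe40 opposite 0610040F04Rik, Bhlhe41 opposite Gm43909, and Usp2 opposite Gm39325 and Gm49380.

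Values at the other hours place ZT8 and ZT20 in the day. In the 71 control libraries of all 6 hours (9, 11, 13, 13, 14 and 11 from ZT0 to ZT20), the Sphk2 row had means of 508, 530, 830, 931, 607 and 486 CPM, with SDs of 108 to 325. The highest mean was at ZT12 and the lowest at ZT20, and ZT8 and ZT12 differed by less than their SD. The Thra row had means of 371, 401, 480, 451, 394 and 330 CPM, highest at ZT8 and lowest at ZT20. In the Dbp row the means were 16.9, 19.3, 23.3, 27.7, 21.6 and 18.8 CPM. For Per1 they were 5.44, 5.83, 6.67, 12.3, 10.2 and 8.70 CPM, so that its highest hour, ZT12, was outside the pair compared here. These profiles were not tested.

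**Figure D2:**
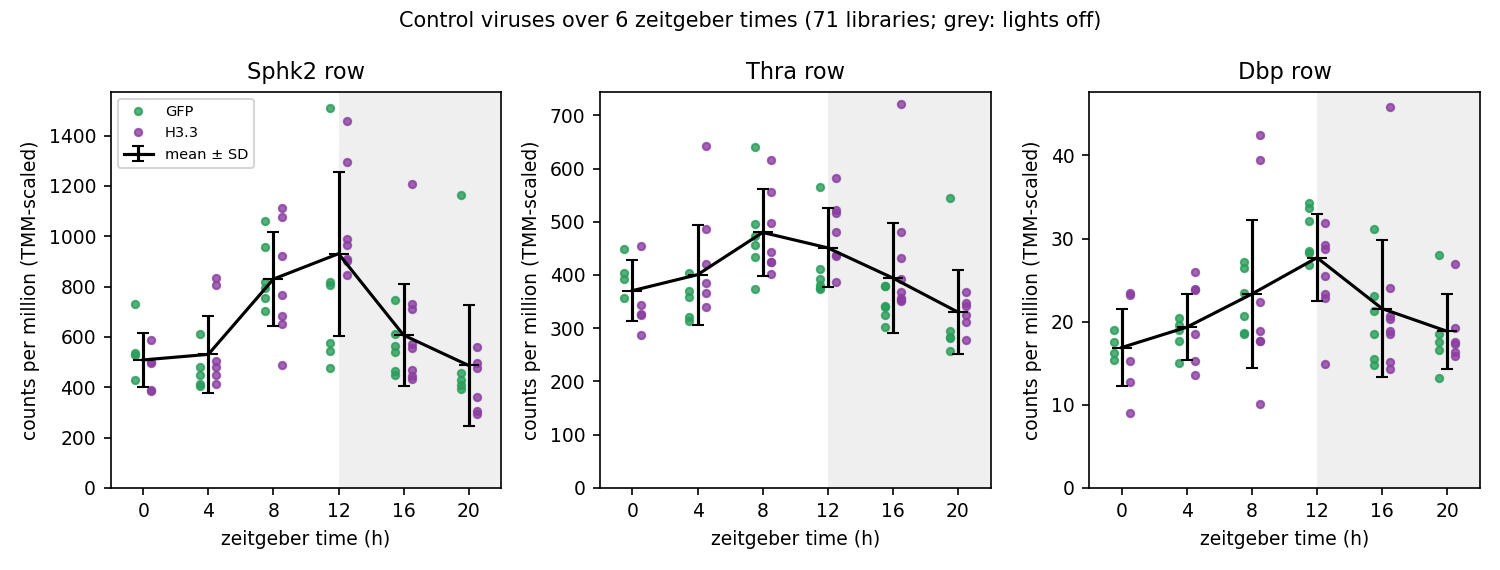
CPM of the Sphk2, Thra and Dbp rows in the control libraries at each of the 6 hours, by virus, with mean ± SD in black. ZT8 lies near the top of the Sphk2 and Thra profiles, at 830 and 480 CPM, and ZT20 at the bottom, at 486 and 330 CPM.

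Some libraries stood apart by tissue. Summed over 12 marker rows of the thalamus (chosen after these values were seen), GFP ZT20 cohort 1 replicate 1 and H3.3 ZT20 cohort 1 replicates 1, 2 and 3 held 563, 475, 584 and 604 CPM, while the ZT8 libraries held 29.1 to 213. The other ZT20 libraries held 32.1 to 196. Over 6 rows of midbrain dopamine neurons, H3.3 ZT8 cohort 3 replicate 1 held 480 CPM, while the other ZT8 libraries held 4.79 to 58.4 and the ZT20 libraries 16.97 to 132. Of 4 midbrain rows tested none was called over 24 libraries. Over 19 libraries Aldh1a1 was called higher at ZT20 (log2 -1.64, edgeR, adjusted p = 0.0102), where 2.15% of all rows were. The Parpbp row, whose reads run in the direction of Pmch, ran from 32.3 to 46492 CPM at ZT8 and from 881 to 26235 at ZT20. It was lowest, at 32.3, 33.6 and 213 CPM, in H3.3 ZT8 cohort 3 replicate 1, H3.3 ZT8 cohort 1 replicate 3 and GFP ZT8 cohort 1 replicate 5. Hdc, the gene of the histamine-making enzyme that defines the TMN, had 0 to 11.6 CPM at ZT8 and 0 to 6.93 at ZT20 and was below the filter, so the histamine neurons themselves could not be checked in these counts. Results are given over all 24 libraries, without the 4 ZT20 libraries high in thalamic markers (20 libraries), and without these and the ZT8 library high in midbrain markers (19 libraries, 12 at ZT8 and 7 at ZT20). The fits without them were added after seeing the data, and the choice was made against the ZT8 libraries. In such tissue pieces fewer cells of a type and less RNA per cell cannot be told apart.

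**Figure D3:**
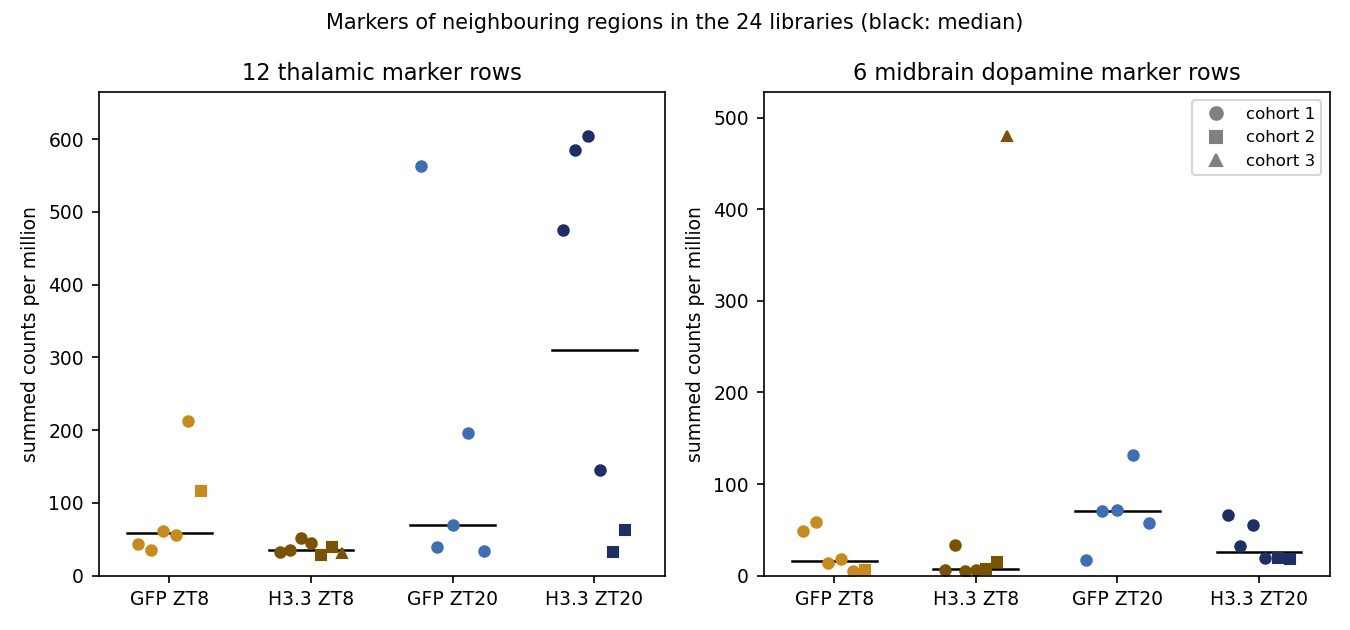
Summed CPM of 12 thalamic marker rows (left) and 6 midbrain dopamine marker rows (right) in each library, by virus and hour, with the median in black. Of the ZT20 libraries 4 lie at 475 CPM or above in the left panel, and 1 ZT8 library lies at 480 CPM in the right panel.

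Over all 24 libraries 1826 of 10570 rows tested were called at an adjusted p under 0.05, or 17.3%. Higher at ZT8 were 821 rows (7.77%) and higher at ZT20 were 1005 (9.51%). The ZT8 differences were small, with a median of 0.54 on the log2 scale and 59 rows past 2-fold, and the ZT20 differences larger, with a median of -0.76 and 204 rows past 2-fold. Leaving out the 4 thalamus-high ZT20 libraries left 11 calls of 11171 rows (0.0985%; 8 higher at ZT8 and 3 at ZT20). Leaving out the midbrain-high ZT8 library as well gave 546 of 10661 (5.12%), 317 higher at ZT8 (2.97%) and 229 at ZT20 (2.15%). Of the 821 rows higher at ZT8, all 821 were tested in the 19 libraries and kept their sign, and 287 (35.0%) were called again. Of the 1005 higher at ZT20, 966 were tested, 965 kept their sign, and 173 (17.2% of the 1005) were called again. The 19 libraries are part of the 24, so kept signs and repeated calls are no independent test. The cohorts were uneven, with 9 libraries of cohort 1 at each hour, 3 of cohort 2 and 1 of cohort 3 at ZT8, and 2 of cohort 2 at ZT20. Cohort 1 alone gave 2501 calls of 10509 rows (23.8%), with the Sphk2, Thra and Nr1d1 rows higher at ZT8 by 0.63, 0.41 and 0.80 on the log2 scale (edgeR, adjusted p = 0.00787, 0.0168 and 0.000114). The number of calls also moved with single libraries, from 847 without H3.3 ZT20 cohort 1 replicate 3 to 2770 without H3.3 ZT8 cohort 3 replicate 1.

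The 11 rows called in the 20 libraries were Sphk2, Thra, Spsb3, Elmo3, Smarcd3, C8g, Zfp772 and RP23-142M12.5, higher at ZT8, and Adarb1, Prkcd and Slc24a2, higher at ZT20. C8g (a complement component), Zfp772 (a zinc finger gene) and Smarcd3 (a chromatin remodelling subunit, opposite Chpf2 and Mir671) are named for this list, after their values were seen. Spsb3, an adaptor of ubiquitin ligases that lies opposite Eme2, was the steadiest of them at ZT8, where it held 160 to 205 CPM with a median of 182, against 74.7 to 197 with a median of 115 at ZT20 (log2 0.63 ± 0.11 SE, edgeR, adjusted p = 0.00213). Elmo3, opposite Gm27320 and Mir328, held 115 to 176 CPM at ZT8 and 41.3 to 139 at ZT20 (log2 0.65, edgeR, adjusted p = 0.00356).

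The 10 rows of smallest p higher at ZT8 were RP23-142M12.5, Mybpc2, Cfap46, Evi5l, Spsb3, H2-T22, Ryr1, B4galt3, Tapbp and RP24-74F2.12, and for 9 of them, the exception being Spsb3, no library of ZT20 exceeded the ZT8 median. RP23-142M12.5, a clone name with no position in the annotation used, held 198 to 395 CPM at ZT8 (median 305) and 87.2 to 245 at ZT20 (median 152), with 11 of 13 ZT8 libraries above every ZT20 library. It differed by 0.97 ± 0.15 over 24 libraries (log2, SE; edgeR, adjusted p = 0.000464) and 0.81 ± 0.13 over 19 (edgeR, adjusted p = 0.00169). H2-T22 and Tapbp belong to antigen presentation, the first as a nonclassical class I molecule and the second as tapasin, which loads peptides. Their rows lie opposite A930015D03Rik and Gm19412, and Tapbp held 102 to 178 CPM at ZT8 and 37.6 to 128 at ZT20 (log2 0.88, edgeR, adjusted p = 0.00258). Mybpc2, opposite Gm44646, and Ryr1, opposite Gm26604 and Gm44408, are genes of the contractile and calcium-release machinery of muscle. Ryr1 held 7.40 to 33.2 CPM at ZT8 and 3.54 to 14.1 at ZT20 (log2 1.25, edgeR, adjusted p = 0.00258). Cfap46, a protein of motile cilia with no annotated gene opposite, held 10.9 to 25.8 CPM at ZT8 and 2.53 to 14.1 at ZT20 (log2 1.39, edgeR, adjusted p = 0.00211). Evi5l lies opposite 4932443L11Rik and Prr36, and B4galt3 opposite Ppox. All 10 rows were called over the 19 libraries too, which are part of the 24 that picked them.

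Among the leading rows of the 19-library fit, Tsr3 and Dalrd3, opposite other genes, were not called over 20 libraries (edgeR, adjusted p = 0.142 and 0.0702). Tsr3, a ribosomal RNA modifying enzyme opposite Baiap3, which encodes a protein of dense-core vesicle traffic, held 174 to 1126 CPM at ZT8 (median 701) and 63.5 to 683 at ZT20 (median 351), a log2 difference of 1.15 (edgeR, adjusted p = 0.00705) and 0.80 over 19 libraries (edgeR, adjusted p = 0.00169). Dalrd3, which lies opposite Wdr6, a gene of transfer RNA modification, held 2165 to 4198 CPM at ZT8 (median 3085) and 873 to 2990 at ZT20 (median 1741), a log2 difference of 0.86 (edgeR, adjusted p = 0.00259) and 0.60 over 19 libraries (edgeR, adjusted p = 0.00288). Both hours overlapped in each row.

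The rows higher at ZT8 and at ZT20 differed in their position relative to other genes. Of the annotated rows tested, 44.9% overlapped an exon of a gene on the other strand. The share was 74.6% of those higher at ZT8 and 25.8% of those higher at ZT20, and in the 19 libraries it was 45.0%, 76.3% and 22.8%. Names without a match in the annotation made 21.6% of the rows tested, 40.1% of those higher at ZT8 and 6.27% of those higher at ZT20. The next share is of a library's reads in annotated rows tested, so names without a match are left out. Rows with a gene on the other strand held 84.1% ± 2.35 of these reads at ZT8 (SD, n = 13) and 80.1% ± 5.45 at ZT20 (SD, n = 11). The difference was 4.05 percentage points (2-sided permutation test, p = 0.0214, adjusted over 3 library measures 0.0643). Within GFP it was 2.31 points (exact permutation test, p = 0.165), within H3.3 5.48 (exact permutation test, p = 0.0606), and over the 19 libraries 2.36 (permutation test, p = 0.0601). H3.3 ZT20 cohort 1 replicates 2 and 3, the libraries over 4.5% in gene rows, held 70.4% and 70.2%. The other ZT20 libraries held 77.9% to 86.9%, and the ZT8 libraries 78.0% to 86.9%. Without the libraries over 4.5%, 245 of 10388 rows were called. The part of the difference in this share in the counts of rows called was not tested.

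**Figure D4:**
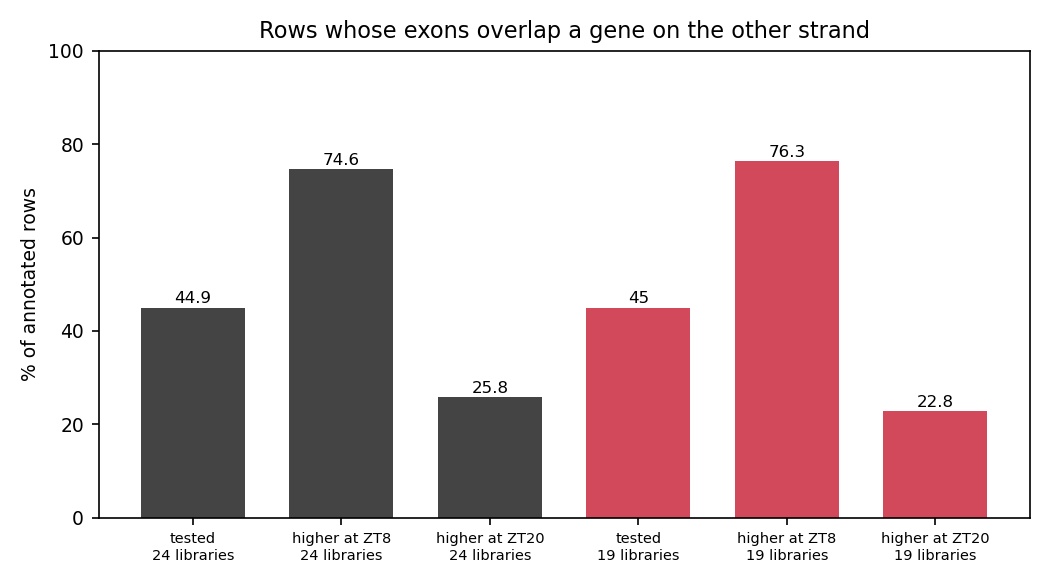
Share of annotated rows whose exons overlap an exon of a gene on the other strand, in percent, among the rows tested and the rows called in each direction, over 24 and over 19 libraries. The share is 74.6% and 76.3% among rows higher at ZT8 and 25.8% and 22.8% among rows higher at ZT20.

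The 10 rows of smallest p higher at ZT20 were Prkcd, Adarb1, Adcy1, Slc24a2, Gabrd, Nsmf, Rgs8, Edil3, Synpo2 and Kcnc2, of which only Rgs8 (Gm29529) has an annotated gene opposite. Prkcd, Gabrd and Synpo2 are also among the 12 thalamic marker rows. Prkcd (chr14:30595354-30626210, -), a protein kinase C that marks thalamic relay neurons, held 0 to 6.91 CPM at ZT8 (median 1.36) and 0.872 to 150 at ZT20 (median 27.6). Its highest values were 150, 131, 95.3 and 84.7 CPM, in the 4 libraries high in thalamic markers, and 8 of 11 ZT20 libraries stood above every ZT8 library. The log2 difference was -4.56 ± 0.66 (SE; edgeR, adjusted p = 0.000464), -2.59 over 20 libraries (edgeR, adjusted p = 0.0485) and -2.53 ± 0.53 over 19 (SE; edgeR, adjusted p = 0.00646). Gabrd, the delta subunit of extrasynaptic GABA-A receptors, held 0 to 1.54 CPM at ZT8 and 0 to 48.4 at ZT20 and was below the filter without the 4 libraries. Synpo2, an actin-binding protein, held 0.683 to 7.68 CPM at ZT8 and 0.589 to 55.9 at ZT20, and did not pass over 19 libraries (log2 -1.25, edgeR, adjusted p = 0.113). Of the 12 thalamic rows, a list picked after these values were seen, 10 were tested over 24 libraries and 8 were higher at ZT20, where 9.51% of all rows were. Over 19 libraries 5 were tested and Prkcd alone was called. The part of the tissue cut in these differences was not tested.

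Some of the leading rows also differed in the remaining ZT20 libraries. These were not free of thalamic markers. GFP ZT20 cohort 1 replicate 4 and H3.3 ZT20 cohort 1 replicate 4 held 196 and 145 CPM in the 12 thalamic rows. The ZT8 libraries had a median of 43.8 and a highest sum of 213. Among the remaining ZT20 libraries, the same libraries held the most Adarb1 (89.1 and 75.2 CPM), Slc24a2 (76.5 and 43.1) and Adcy1 (63.9 and 41.1). Adarb1 (chr10:77290726-77418270, -), an adenosine deaminase that edits RNA of glutamate receptors, held 18.4 to 40.6 CPM at ZT8 (median 32.6) and 37.7 to 179 at ZT20 (median 75.2). The 7 ZT20 libraries outside the thalamus-high ones held 37.7 to 89.1 CPM, and 5 of the 7 exceeded every ZT8 library. Its log2 difference was -1.65 ± 0.24 (SE; edgeR, adjusted p = 0.000464), -0.86 over 20 libraries (edgeR, adjusted p = 0.0379) and -0.86 ± 0.16 over 19 (SE; edgeR, adjusted p = 0.00423). Slc24a2, a sodium, calcium and potassium exchanger of neurons, held 12.9 to 29.7 CPM at ZT8 and 28.8 to 135 at ZT20, with 10 of 11 ZT20 libraries above every ZT8 library (log2 -1.54, edgeR, adjusted p = 0.000464; -0.92 over 19 libraries, edgeR, adjusted p = 0.00465). Adcy1, a calcium-stimulated adenylyl cyclase, differed by -2.32 and over 19 libraries by -1.43 (edgeR, adjusted p = 0.00803). Kcnc2, a fast potassium channel, differed by -1.84 and over 19 libraries by -1.19 (edgeR, adjusted p = 0.0179).

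Some glial rows were higher at ZT20. Of 11 astrocyte rows all were tested and 5 were higher at ZT20, where 9.51% of all rows were, with a list median of -0.60 against -0.06 over all rows. Over 19 libraries it was also 5 of 11, where 2.15% of all rows were, with a median of -0.61 against -0.03, and over 20 libraries none was called (median -0.43). Slc1a2, the main glutamate transporter of astrocytes, opposite Gm13872, held 71.4 to 120 CPM at ZT8 (median 94.6) and 95.9 to 304 at ZT20 (median 138), a log2 difference of -0.91 (edgeR, adjusted p = 0.00259) and -0.57 over 19 libraries (edgeR, adjusted p = 0.0179). Glul, glutamine synthetase, opposite Teddm2, held 59.1 to 219 CPM at ZT8 (median 88.9) and 108 to 277 at ZT20 (median 138), a log2 difference of -0.81 (edgeR, adjusted p = 0.00479) and -0.74 over 19 libraries (edgeR, adjusted p = 0.00196). Its highest ZT8 value, 219, was that of H3.3 ZT8 cohort 3 replicate 1. Aldoc, the astrocyte aldolase, was higher at ZT20 over both sets (log2 -0.54 and -0.61; edgeR, adjusted p = 0.0478 and 0.00849). Aqp4, the water channel of astrocyte endfeet, and Aldh1l1, opposite Gm15756, were called over 24 libraries only, and Gfap and S100b over 19 only (log2 -1.07 and -0.75; edgeR, adjusted p = 0.00586 and 0.0227).

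Of 15 oligodendrocyte rows 14 were tested and 5 were higher at ZT20 (9.51% of all rows; median -0.58), and over 19 libraries 6 of 15, with Mbp added (2.15% of all rows; median -0.51). Over 20 libraries none was called (median -0.30). Mobp, a myelin protein, held 81.3 to 802 CPM at ZT8 (median 161) and 169 to 640 at ZT20 (median 371). The value of 802 was that of the midbrain-high ZT8 library, and the other 12 ZT8 libraries reached 258 CPM at most. Mobp differed by -0.87 ± 0.27 (log2, SE; edgeR, adjusted p = 0.0289) and by -0.88 ± 0.17 over 19 libraries (edgeR, adjusted p = 0.00440). Cldn11, the tight junction protein of myelin, differed by -1.09 and -1.04 (edgeR, adjusted p = 0.00705 and 0.0114). Cnp, opposite Dnajc7, and Mog, also myelin genes, lay at 0.17 and 0.15 and did not pass. Galnt5, a glycosyltransferase gene opposite the myelin gene Ermn, held 78.0 to 536 CPM at ZT8 and 110 to 585 at ZT20 (log2 -0.89, edgeR, adjusted p = 0.0159; -0.98 over 19 libraries, edgeR, adjusted p = 0.00423), in the direction of the Ermn row itself (-1.38, edgeR, adjusted p = 0.0102). Of 7 microglia rows tested, Ctss, a lysosomal protease, was called higher at ZT20 (-1.28, edgeR, adjusted p = 0.0101), where 9.51% of all rows were. Over 19 libraries Ctss and C1qa, a complement component, were (log2 -1.23 and -0.89; edgeR, adjusted p = 0.0288 and 0.0410), where 2.15% of all rows were.

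Some chaperone rows were higher at ZT20 over all libraries, and none over 20 libraries. Of 14 heat shock and cold-inducible rows tested 5 were called higher at ZT20, where 9.51% of all rows were (Hsp90aa1, Hsp90ab1, Hsph1, Dnajb5 and Chordc1; list median -0.47), and over 19 libraries Hsp90ab1 alone. Hsp90ab1, the constitutive cytosolic HSP90, held 253 to 514 CPM at ZT8 (median 335) and 335 to 719 at ZT20 (median 431), a log2 difference of -0.48 (edgeR, adjusted p = 0.0111) and -0.39 over 19 libraries (edgeR, adjusted p = 0.0180). Of 12 unfolded protein response rows tested 4 were called (Hspa5, Hsp90b1, opposite 1810014B01Rik, Calr, and Pdia3, opposite Catsper2; list median -0.51), and over 19 libraries Calr alone, a calcium-binding chaperone (log2 -0.60 and -0.47; edgeR, adjusted p = 0.0225 and 0.0393). Cirbp, the cold-inducible RNA-binding protein, lay at 0.19 and did not pass. Rbm3 was below the filter.

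None of 10 immediate early rows tested was called (list median -0.07), and none of 11 cholesterol synthesis rows (-0.31). Of 10 glucocorticoid-responsive rows, beside 9.51% of all rows, Klf9, a Krüppel-like factor, and Nr3c1, the glucocorticoid receptor, were higher at ZT20 (log2 -0.69 and -0.79; edgeR, adjusted p = 0.0150 and 0.0476), and none over 19 libraries. Of 11 rows of H3K4 methyltransferases and histone aminylation Kmt2c, opposite Gm42585, was higher at ZT20 (log2 -0.90, edgeR, adjusted p = 0.0165), and over 19 libraries it was not called (-0.72, edgeR, adjusted p = 0.0550). Of 5 rows of the TMN list, Slc18a2, the vesicular monoamine transporter, held 32.3 to 85.5 CPM at ZT8 (median 42.2) and 37.1 to 232 at ZT20 (median 75.2). It differed by -1.01 (edgeR, adjusted p = 0.00448) and by -0.76 over 19 libraries (edgeR, adjusted p = 0.00803), and lies opposite Gm29261. Gad1, an enzyme of GABA synthesis, was higher at ZT20 over 24 libraries only (log2 -0.63, edgeR, adjusted p = 0.0471). Of 9 neighbouring peptide rows Pmch, opposite Parpbp, was called (-1.39, edgeR, adjusted p = 0.0314), and none of 10 over 19 libraries. Rarres2, opposite Lrrc61, was the 1 tested row of the ependyma list and was higher at ZT8 (0.36, edgeR, adjusted p = 0.0484), not over 19 libraries. Slc17a7, the glutamate transporter of cortical vesicles, was the 1 of 5 striatum and cortex rows called (-2.57, edgeR, adjusted p = 0.00299), and was below the filter in the 19. Neither of 2 tested rows of the endothelium and blood list, nor of the pituitary list, was called. The mitochondrially encoded rows held no reads. For the lists of this paragraph, 9.51% of all rows tested were higher at ZT20 and 7.77% at ZT8 over 24 libraries. Over 19 libraries the shares were 2.15% and 2.97%. With so few rows in each list, these counts are no result about a list.

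**Figure D5:**
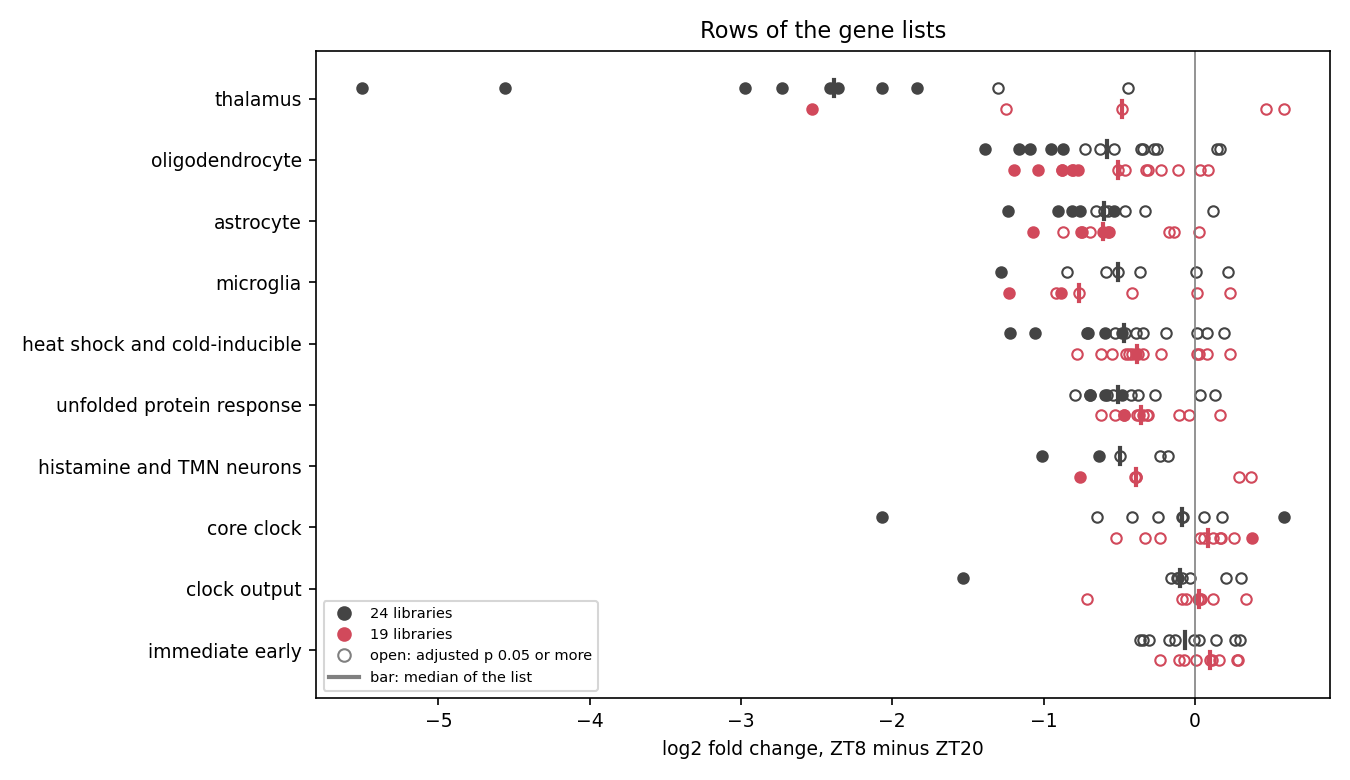
Log2 difference, ZT8 minus ZT20, of the tested rows of each gene list over 24 and over 19 libraries, with called rows marked. Astrocyte and oligodendrocyte rows lie mostly below 0 in both sets, with medians of -0.60 and -0.58 over 24 libraries and -0.61 and -0.51 over 19.

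The difference between the hours was also taken within each virus. Within GFP 378 of 8600 rows were called (4.4%) and within H3.3 62 of 9379 (0.661%). No row passed the test of whether the difference itself varied between GFP and H3.3 (edgeR, 0 of 10570, with 470 at an unadjusted p under 0.05). In the Sphk2 row the log2 difference was 0.56 ± 0.22 within GFP (SE; edgeR, adjusted p = 0.137) and 0.94 ± 0.21 within H3.3 (SE; edgeR, adjusted p = 0.0367). In the Thra row it was 0.51 and 0.52, and in the Nr1d1 row 0.64 and 0.52.

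The Q5A libraries, 6 at each hour, share no library with the controls. Among them 11 of 9413 rows were called (0.117%). The Sphk2 row had means of 730 ± 137 CPM at ZT8 and 586 ± 289 at ZT20 (SD, n = 6 each), a log2 difference of 0.35 (edgeR, adjusted p = 0.443). The Thra row had 448 ± 62.7 and 348 ± 57.8 CPM (SD, n = 6 each), a log2 difference of 0.40 (edgeR, adjusted p = 0.154). In the Nr1d1 row the order of the means was the other way, 1806 ± 273 CPM at ZT8 and 2038 ± 401 at ZT20 (SD, n = 6 each). Of the 801 rows higher at ZT8 in controls that were tested in Q5A, 57.4% lay above 0 there, against 52.5% of all rows tested. Of 883 rows higher at ZT20 in controls, 61.4% lay above 0 in Q5A. Of the rows called over the 19 libraries, 60.5% of 309 higher at ZT8 and 41.4% of 210 higher at ZT20 lay above 0 in Q5A. The difference between the hours differed between controls and Q5A in 161 of 11717 rows (1.37%; edgeR interaction, 3070 at an unadjusted p under 0.05). Without the 5 control libraries high in thalamic or midbrain markers it differed in 0 of 12017 rows. In that fit 2555 rows lay at an unadjusted p under 0.05 (edgeR interaction). The Q5A libraries were not screened by these markers, so only 1 side was changed. For Sphk2 and Thra the interaction was -0.46 ± 0.30 and -0.16 ± 0.19 (log2, SE; edgeR, adjusted p = 0.321 and 0.597).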

How the data were processed

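RNA-seq libraries of TMN tissue were made from polyadenylated RNA with a stranded ligation kit. The authors aligned the reads to GRCm38 with STAR 2.7.11b and assigned those on exons to gene names by htseq-count (HTSeq 2.0.5, union mode, stranded option yes). The deposited tables hold unnormalized counts for 54087 names and 5 summary entries in each library. The summary entries stayed out of library sizes and tests. Files mapped to no sample (18) were not used.

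Groups came from the sample labels. Counts of the 24 libraries were tested with edgeR 4.0.16 in R 4.3.3 (TMM, filterByExpr with a minimum count of 10 and a minimum total of 15, quasi-likelihood F test, virus as covariate, Benjamini-Hochberg adjusted p under 0.05 over all rows tested). A log2 difference is ZT8 minus ZT20, and CPM are counts scaled to the TMM-adjusted total of all gene rows (in sums over marker or list rows, to the unadjusted total). Depth was 979664 to 1902572 gene-row reads per library, so low rows carry counting error as well. The library measures were compared by permutation tests with 100000 resamples. Nothing states that cages or litters were separate, so the p-values cover the spread between these animals. Positions and other-strand overlaps came from GENCODE GRCm38 with bedtools 2.31.1; 28499 names matched. Promoters came from RefSeq (GRCm38.p6).

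The rows named were the 10 of smallest p in each direction, all tested clock rows with Hdc, called rows of the other lists, and rows opposite clock genes; some of these are not reported here. The leading rows of the 19 libraries and the thalamic and midbrain markers were added after the data were seen. The members and lists were chosen with earlier results of these data known. Alternatives were DESeq2 1.42.0, other normalization, filters, covariates and library sets. On simulated counts for ZT8 against ZT20 (10345 genes), 65.6% of genes changed by 1 on the log2 scale and 99.0% of those changed by 2 were recovered. False calls numbered 7. The simulated counts were drawn independently and held no libraries set apart by tissue, so these rates do not carry over to such libraries.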

Additional observations from a re-analysis of the deposited data

Results flagged for a closer look

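Of 284 sets of values (a row or library measure within 1 group of virus and hour), 24 held a library that stood apart by Dixon's ratio, the gap to the nearest library over the whole range. Chance gives about 1 in 20. The values are given without an explanation.

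H3.3 ZT8 cohort 3 replicate 1, the library high in midbrain markers, stood apart from the other 6 in 8 sets. Its summed midbrain markers were 480 CPM against at most 33.2 (ratio 0.940). Its glial rows were high, with Mobp at 802 CPM against at most 247 (0.770), Ermn at 29.6 against 12.9 (0.611), Aldoc at 377 against 139 (0.808) and Glul at 219 against 108 (0.721). Rarres2 stood at 562 CPM against 397 (0.610) and Slc18a2 at 85.5 against 52.4 (0.633). Bhlhe41, a clock-linked repressor, was low at 10.1 CPM, where the others held at least 24.4 (0.685).

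GFP ZT20 cohort 1 replicate 1 stood apart from the other 4 in 5 sets. The Sphk2 row held 1165 CPM against 393 to 458 (ratio 0.916) and the Thra row 544 against 256 to 296 (0.863). Its Prkcd, Gabrd and Slc17a7 rows held 150, 48.4 and 59.2 CPM, against at most 35.8, 10.5 and 13.1 (0.765, 0.783 and 0.790). Its Nr1d1 row, at 1223 CPM, lay below every ZT8 library. Whether the hour on its label is right cannot be told from these values, so the Sphk2 and Thra rows are also given without it.

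GFP ZT8 cohort 1 replicate 5 had the smallest total of its group, 1207240 reads against at least 1505160 (ratio 0.784). It held Adcy1 at 20.9 CPM against at most 11.5 (0.777), Nsmf at 41.0 against 25.8 (0.641) and Hlf at 13.4 against 6.91 (0.650).

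The other sets were spread over 7 libraries. In GFP ZT8, Edil3 stood at 10.9 CPM in cohort 1 replicate 3 (ratio 0.719), Aqp4 at 17.1 in cohort 1 replicate 2 (0.700) and Hsp90b1 at 46.1 in cohort 2 replicate 1 (0.668). In H3.3 ZT8, Mybpc2 stood at 63.5 in cohort 1 replicate 4 (0.622). In GFP ZT20, Cry2 stood at 28.5 in cohort 1 replicate 3 (0.716). In H3.3 ZT20, Dbp stood at 27.0 in cohort 1 replicate 1 (0.695) and Kmt2c at 32.3 in cohort 1 replicate 2 (0.631).

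For 4 named rows the difference between ZT8 and ZT20 differed between controls and Q5A (edgeR interaction, Q5A minus controls on the log2 scale). It was -1.10 for B4galt3 (adjusted p = 0.0498), -0.97 for RP24-74F2.12 (adjusted p = 0.0410), 1.74 for Edil3 (adjusted p = 0.0410) and -0.77 for Nr1d1 (adjusted p = 0.0498). The difference in the Nr1d1 row was 0.59 in controls and -0.14 in Q5A. This row takes reads of Thra in the stretch they share. The Thra row, which takes reads of Nr1d1 there, did not pass this interaction. Without the 5 control libraries high in thalamic or midbrain markers none of the 4 rows passed, and the Q5A libraries were not screened by these markers.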

How the results depend on the processing

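With the gene-row percent as a covariate 672 rows were called, 330 higher at ZT8 and 342 at ZT20. Without the libraries over 4.5 percent the numbers were 245, 137 and 108, and at an adjusted p under 0.01 427, 180 and 247. Without the 4 thalamus-high libraries they were 11, 8 and 3, without these and the midbrain-high library 546, 317 and 229, with cohort as a further covariate in that set 876, 496 and 380, and with DESeq2 there 837 in all and 271 higher at ZT20. With the summed thalamic markers as a covariate 0, 0 and 0 rows passed in edgeR, with 1303 at an unadjusted p under 0.05; no other tool was run with it. Leaving out 1 library at a time gave 847 to 2770 calls, 392 to 1253 higher at ZT8 and 455 to 1517 higher at ZT20. From the 19 libraries it gave 136 to 1294. The causes were not tested.

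Same-numbered libraries of the 2 hours did not all deviate together (11 pairs, r from -0.178 to 0.457; 4 over 0.1, all among the 6 H3.3 pairs), so the numbers are not taken as pairs. The replicate block, which moved the H3.3 count most, gave 2622 calls with 1284 higher at ZT8, 93 within GFP and 2039 within H3.3.

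The GFP and H3.3 interaction had 0 calls and 55 without a filter, and leaving out libraries gave 0 to 0. The control and Q5A interaction, 161 rows, gave 713 with DESeq2, 513 in cohort 1 alone, 549 without a filter, 59 with cohort as a covariate, 0 without the 5 libraries, and 0 to 1060 leaving out libraries. Within GFP DESeq2 gave 611 calls, cohort 1 alone 169, no filter 682, the fit without the thalamus-high library 741, and leaving out libraries 99 to 741. Within H3.3 the same settings gave 426, 1706, 651, 1 without its 3 thalamus-high libraries and the midbrain-high one, and 1 to 970. The total count differed by 273321 reads within GFP (exact permutation test, p = 0.0173).

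Of 52 named rows called, no direction turned in any setting, but every setting shares libraries with the fit that picked the rows. DESeq2 lost 2 calls, cohort as a covariate 2, cohort 1 alone 1, the gene-row percent 20 and the thalamic covariate 52, where Prkcd went from -4.56 to -1.79 and RP23-142M12.5 from 0.97 to 0.85 on the log2 scale. Without the 4 thalamus-high libraries 44 of 51 were lost, and in the 19 libraries 17 of 49. Rows below the filter on low counts, Hdc among them, could not be tested.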
